A study of Homo sapiens with 10 samples.

Results

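The proteins of the large ribosomal subunit were followed through 46 genes, from RPL3 to RPL41 with the stalk proteins RPLP0, RPLP1 and RPLP2. A gene entered when the Ensembl identifier of a listed coding-sequence position belonged to one of the 46 symbols, and all 46 were listed in at least 1 library, out of 10631 genes in the series. PolyA RNA of 2 human lines was sequenced as PacBio long reads, and edits were called on them. HEK293T, derived from human embryonic kidney and carrying SV40 large T antigen, expressed Ribo-STAMP (n = 3), in which the cytidine deaminase APOBEC1 is fused to the small subunit protein RPS2, or APOBEC1 without the ribosomal protein (APOBEC1-only, n = 3). Doxycycline (1 ug/mL, 72 h) switched on both constructs. MDA-MB-231, a line from a triple-negative breast tumour, carried the Ribo-STAMP construct throughout, induced with 1 ug/mL doxycycline for 48 h, and either received 100 uM CoCl2 for 48 h to mimic hypoxia (n = 2) or was left untreated (n = 2). HEK293T libraries used the Iso-Seq Express protocol and MDA-MB-231 libraries a later SMRTbell kit, and no test was made between the lines. No library of MDA-MB-231 carried APOBEC1 alone, so the background of the free enzyme is known for HEK293T only. The labels number the replicates without saying that they were separate cultures, so p-values measure only how far these samples spread, and that spread may be technical.

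Large subunit proteins wrap the ribosomal RNA that joins amino acids, line the tunnel through which the new chain leaves, and form the stalks that guide elongation factors and tRNAs. They are made in amounts matched to one another, and in mammals their mRNAs begin with a pyrimidine tract, the TOP motif, through which mTOR signalling and LARP1 set how many are on ribosomes. APOBEC1 turns cytidine into uridine, preferring an A or U just before it, so a Ribo-STAMP edit is read as a mark left on an mRNA while it was on ribosomes.

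The edits are shown first in their sequence. In MDA-MB-231, every one of the members' entries lay at a C of the gene's own GRCh38 coding sequence (GENCODE 29). The 10 coding positions with the most edited reads over the 4 libraries, at most 2 per gene and with RPL7, RPL8 and RPL30 not considered, are given as 25 bases of the coding strand, 5′ to 3′, with the edited C and the base before it in capitals.

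RPL9 chr4:39457617-39457641 (minus): ctaccgttcggACtatttgtagtca
RPL10A chr6:35468814-35468838 (plus): cgacaccctgtACgaggcggtgcgg
RPL27 (spliced, across an exon junction): tgaagagagatACaagacaggcaag
RPL5 chr1:92841828-92841852 (plus): gcttcctcagaGCtcaggagcgggc
RPL18 chr19:48615909-48615933 (minus): ccgagaggtgtACcggcatttcggc
RPL19 chr17:39202992-39203016 (plus): agcggaagggtACagccaatgcccg
RPL35 chr9:124858013-124858037 (minus): cctaagaagacACgtgccatgcgcc
RPL13 chr16:89561284-89561308 (plus): catccggcccaTCgtgcgctgcccc
RPL35 chr9:124857967-124857991 (minus): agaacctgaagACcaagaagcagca
RPL6 chr12:112405924-112405948 (minus): aaaatcccaaaACatcttactgatg

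Each of these positions was listed in 3 of the 4 libraries. No position of any gene was listed in all 4. Sites edited in every library are therefore absent here and from all MDA-MB-231 counts and levels below. The effect of this on the comparisons was not tested. Edits at the RPL9 position, in exon 4 of 8, were carried by 5 and 9 reads of 386 and 410 in CoCl2 libraries, against 5 reads of 276 in untreated replicate 2. The RPL10A position, in exon 2 of 6 and silent for the protein, had 9 and 6 edited reads of 293 and 272 with CoCl2, against 3 of 205 in untreated replicate 2. Even these leading sites were edited in a few percent of reads or fewer, from 0.203 to 3.07% over the 10 sites and the libraries that listed them.

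RPL39, RPL37 and RPL31 are shown as coding sequences because the levels and changes below turn on them: RPL39 and RPL37 were among the most densely edited members, and RPL37 and RPL31 stood at opposite ends of the CoCl2 comparison. All 3 proteins are small, and RPL39 and RPL31 lie near the exit of the peptide tunnel. Capitals mark each C listed as edited in at least 1 MDA-MB-231 library.

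RPL39 chrX:119786506-119791643 (minus), 153 coding bases: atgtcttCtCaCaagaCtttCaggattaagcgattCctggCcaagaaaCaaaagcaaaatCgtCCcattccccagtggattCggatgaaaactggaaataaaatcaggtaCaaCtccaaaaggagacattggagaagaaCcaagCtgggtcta
RPL37 chr5:40825262-40835335 (minus), 291 coding bases: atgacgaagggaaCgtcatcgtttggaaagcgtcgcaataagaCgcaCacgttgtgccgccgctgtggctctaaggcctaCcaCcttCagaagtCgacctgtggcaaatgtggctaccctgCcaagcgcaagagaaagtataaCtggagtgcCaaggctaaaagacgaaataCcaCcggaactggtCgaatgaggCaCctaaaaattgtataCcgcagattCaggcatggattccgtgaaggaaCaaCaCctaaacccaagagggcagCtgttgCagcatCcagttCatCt
RPL31 chr2:101001715-101007267 (plus), 300 of 375 coding bases: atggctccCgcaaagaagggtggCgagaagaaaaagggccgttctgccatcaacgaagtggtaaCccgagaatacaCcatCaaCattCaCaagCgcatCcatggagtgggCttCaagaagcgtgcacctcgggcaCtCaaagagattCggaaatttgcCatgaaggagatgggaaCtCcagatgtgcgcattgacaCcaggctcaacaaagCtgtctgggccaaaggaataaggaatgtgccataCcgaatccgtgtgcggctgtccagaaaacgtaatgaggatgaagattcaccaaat

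Of 33 cytidines in the RPL39 coding sequence, 16 were listed as edited in some library. Of 73 in RPL37 the number was 25, and of 84 in RPL31 it was 22, of which 21 fall in the printed stretch. The coordinates span the annotated isoform with its introns and untranslated ends, of which no base is printed.

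Among all edited positions of the family in MDA-MB-231, an A or U stood before the C in 64.4 and 66.0% of entries in CoCl2 libraries and 67.0 and 68.9% in untreated libraries. In the other genes the shares were 80.6 and 80.5% with CoCl2 and 81.7 and 81.0% untreated. Both sets lay above what their sequence offers, since 42.4% of the members' coding cytidines and 43.3% of those of other genes follow an A or U. Coverage moved with this share: among positions with over 500 covering reads it was 44.9 and 46.2% in members with CoCl2 and 37.8 and 50.5% in members of untreated cells, and 56.3 and 54.6% (CoCl2) and 61.7 and 57.5% (untreated) in other genes. Positions with at least 2 edited reads had 83.2 and 84.6% (CoCl2) and 76.2 and 88.5% (untreated) in the family, and 90.6 and 90.4% (CoCl2) and 92.4 and 91.1% (untreated) elsewhere. The part that coverage and sequencing error play in the lower share of the family was not tested.

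**Figure D1:**
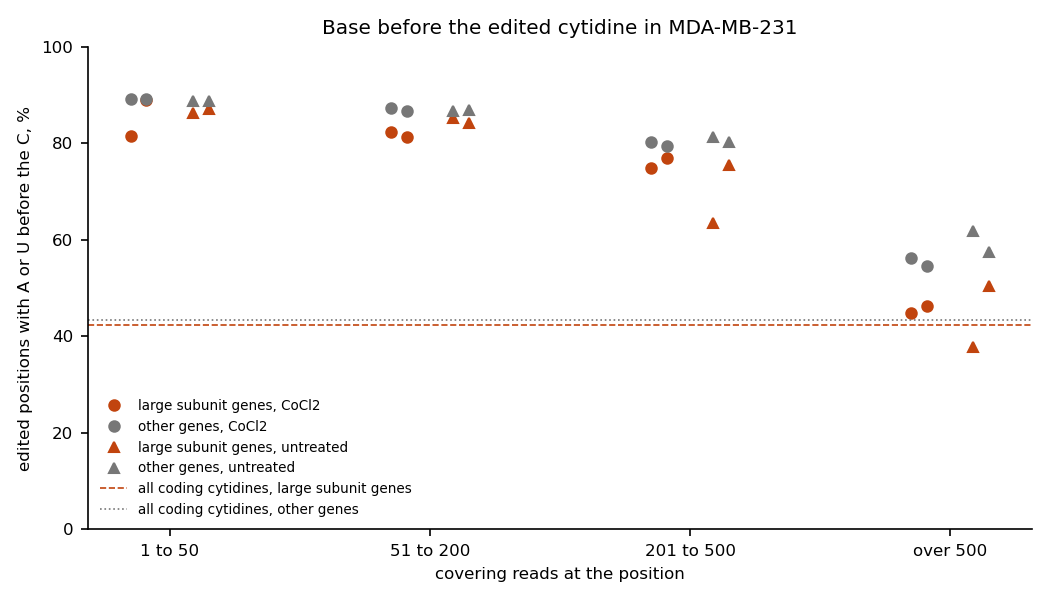
Share of listed edited positions with an A or U before the C (vertical axis, %), by the number of covering reads (horizontal axis), for each MDA-MB-231 library; dashed and dotted lines give the share among all coding cytidines. Members and other genes both lie above 80% up to 200 covering reads, and over 500 reads the members lie between 37.8 and 50.5%, around the dashed line at 42.4%.

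Members' positions recurred between libraries more than those of other genes: 52.5% of their 2084 positions were in more than 1 MDA-MB-231 library, against 32.2% of 345735 elsewhere. Higher coverage gives a position more chances to be listed, and its part was not tested. The edits were spread along the coding sequence, their median place being 0.477 and 0.495 of the way from start to stop with CoCl2 and 0.502 and 0.480 untreated. A C-to-U change would create a stop codon at 5.59 and 5.53% of the members' entries in CoCl2 libraries and at 6.82 and 6.36% in untreated libraries, and 6.32% of all their coding cytidines would do so.

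The family took a small and uneven share of each library. In HEK293T, Ribo-STAMP replicates 1, 2 and 3 held 136, 198 and 1347 edited reads on members, against 13, 2 and 28 for APOBEC1-only. In MDA-MB-231 they held 2114 and 1937 edited reads with CoCl2 and 787 and 1248 untreated. As a share of all edited reads this was 0.207, 0.389 and 2.27% (Ribo-STAMP), 0.372, 0.0630 and 0.942% (APOBEC1-only), 1.22 and 1.25% (CoCl2) and 0.444 and 0.786% (untreated). Replicate 3 was the highest library for both constructs, and both CoCl2 libraries lay above both untreated libraries. Whole libraries held 2971 to 65792 edited reads in HEK293T and 155572 to 177069 in MDA-MB-231. Their total sequencing depth is not known, since a position is listed only when at least 1 read is edited there. The 7 MDA-MB-231 markers were listed in every library of that line and at most 1 of them in any HEK293T library, while the HEK293T markers separated the lines less well (1 to 4 of 5 in HEK293T, 1 or 2 in MDA-MB-231).

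Not every member could be seen in every group. In HEK293T no position of RPL37 or RPL41 was listed, and in MDA-MB-231 none of RPL15. RPL15, which Ribo-STAMP edited in 12, 21 and 76 reads of HEK293T replicates 1, 2 and 3, was therefore absent from all 4 MDA-MB-231 lists. RPL41, the smallest of the ribosomal proteins with a coding sequence of 75 bases, was edited in 3 of 664 covering reads of CoCl2 replicate 2 and in 2 of 351 and 2 of 460 in untreated libraries, and was not listed in CoCl2 replicate 1. RPL22L1, a paralog of RPL22, and RPL36A were listed with 3 and 1 edited reads with CoCl2 and with none in untreated cells.

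In HEK293T the question was how many more edits these mRNAs gained from a ribosome-bound deaminase than from the free enzyme. Ribo-STAMP edited 43 of the 46 members in some library and 20 in all 3, whereas APOBEC1 alone edited 14, none of them in all 3. Over all genes Ribo-STAMP listed 8467 isoforms and APOBEC1-only 3625, of which 52 and 15 were of members. The libraries thus differed far beyond the family, and nothing particular to the members is read from these counts. RPL26 had 1 edited read in each of APOBEC1-only replicates 1 and 3 and none with Ribo-STAMP. Only RPL3, RPL4 and RPL15 had enough edited reads to be tested, at least 10 in 3 libraries. That filter is reached by the Ribo-STAMP libraries alone, so the members that passed it had to differ, and their values are given as a description with no test. For the same reason nothing is read from all 3 lying above the control, since 99.7% of the 654 genes that passed rose and 99.7% lay above without overlap, while 0.153% fell.

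RPL3 lies beside the peptidyl transferase centre. It carried 35.8, 44.7 and 454 depth-scaled edited reads in Ribo-STAMP replicates 1, 2 and 3, against 3.67, 0 and 10.8 with APOBEC1 alone. RPL4, whose loop reaches into the exit tunnel, carried 18.8, 48.9 and 282 with Ribo-STAMP against 2.76, 0 and 6.0 with APOBEC1 alone. RPL15 carried 10.2, 21.8 and 71.2 with Ribo-STAMP against 0, 0.982 and 0. In each gene all Ribo-STAMP libraries lay above all APOBEC1-only libraries, and replicate 3 was the highest of its group except for RPL15 in the control. The log2 differences on the scale of edited reads + 1 were 4.59 ± 0.71 for RPL3, 4.46 ± 0.70 for RPL4 and 4.40 ± 0.58 for RPL15 (SE).

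No member was listed in all 6 HEK293T libraries, so 0 could be tested for editing per covering read or for coverage. Among the 392 genes that could, editing per read rose in 95.7% and lay above the control without overlap in 95.4%, and coverage lay above without overlap in 5.1% and below in 9.44%. APOBEC1-only replicate 2 listed only 2 members. Without it, for RPL3 each 100 covering reads carried 85.7, 50.6 and 119 edited reads in Ribo-STAMP libraries, against 2.23 and 2.05 with APOBEC1 alone, a log2 difference in the odds of an edit of 5.13 ± 0.48 (limma adjusted p = 3.20e-06). RPL4 had 39.3, 47.0 and 93.5 against 1.42 and 1.44, also 5.13 (± 0.44, limma adjusted p = 2.08e-06). Both rose, as did 87.9% of the 560 genes tested in this way. This value can pass 100, because 1 read can carry several edits and edits are summed over positions. Scaled coverage of RPL3 was 43.1, 90.9 and 378 with Ribo-STAMP and 178 and 505 with APOBEC1 alone, and the groups overlapped.

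Within HEK293T Ribo-STAMP, 12 members had an isoform edited in all 3 libraries and a mean coverage of at least 10. To compare genes, levels are given as edited reads per 100 covering reads per 1000 coding bases. The 5 highest members were RPL9, RPL5, RPL13A, RPL7 and RPL10, and the 5 lowest were RPL8, RPL4, RPL15, RPL32 and RPL13. RPL5, which with RPL11 and 5S rRNA forms the particle that restrains MDM2, stood at 19.8, 44.9 and 319 in replicates 1, 2 and 3. RPL9 stood at 28.9, 158 and 219, and RPL13A, known for a role of its own in silencing inflammatory transcripts, at 54.7, 205 and 77.0.

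At the other end, RPL13 stood at 11.3, 46.5 and 46.2, RPL32 at 70.5, 30.9 and 15.4, and RPL15 at 22.5, 29.6 and 66.6. RPL8, next to the catalytic centre, stood at 35.4, 64.9 and 87.6. The ranges of the highest and the lowest members overlapped, so their order was not settled by 3 libraries. Several rest on few reads: RPL13A was covered by 9, 4 and 32 reads, and RPL9 by 6, 5.5 and 27. An isoform is listed only when edited, so its level cannot be below 1 edited read over its coverage, which lifts thinly covered genes.

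Across the 12 the medians were 33.0, 45.7 and 82.3 in replicates 1, 2 and 3, and 13.8, 14.1 and 14.6 in the 2392 other genes. Replicate 3 exceeded replicate 1 in 11 of 12 members by a median ratio of 2.67, against 1.06 in other genes. The same members had a median coverage ratio of 3.25 between these libraries, against 0.821 in other genes. Transcripts weighted by reads averaged 4436, 3983 and 3549 bases in these replicates 1, 2 and 3, and the part that the length of the captured RNA played was not tested. RPL5, one of the better covered members, had 6 edited reads of coverage 34 in replicate 1, 12 of 30 in replicate 2 and 199 of 70 in replicate 3.

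**Figure D2:**
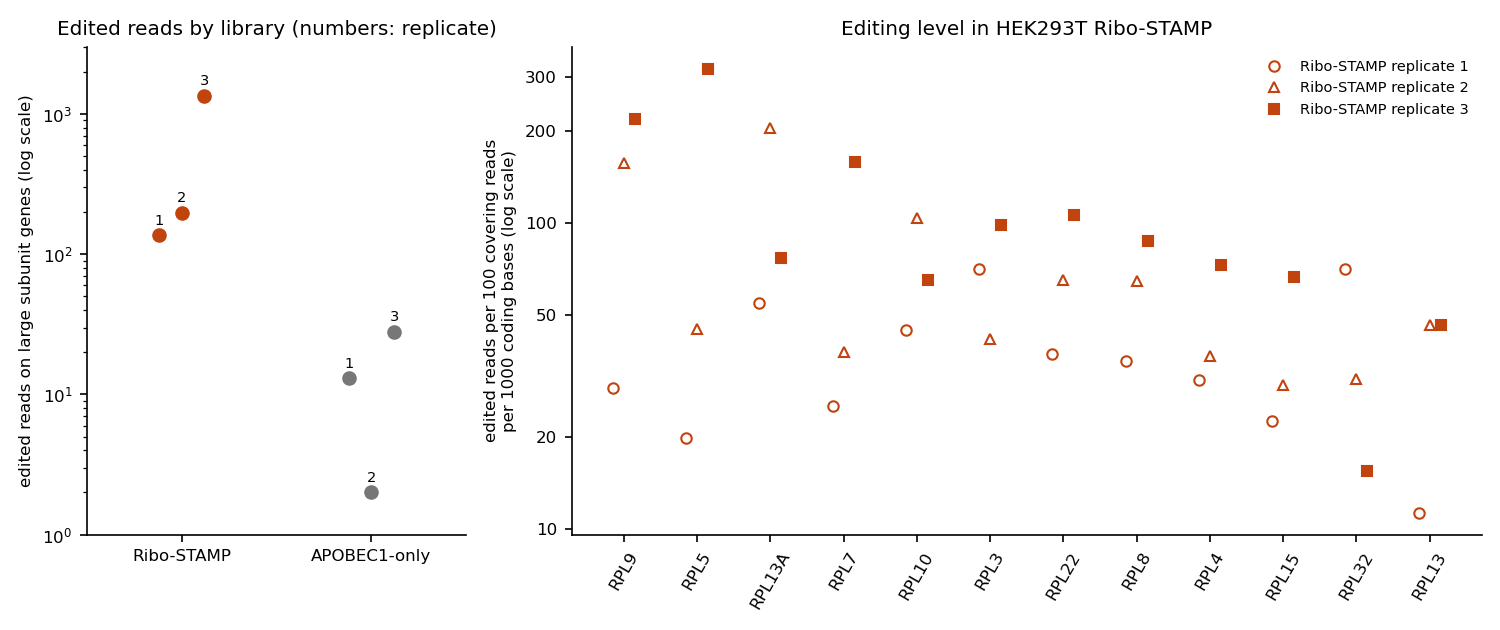
Left: edited reads on the 46 large subunit genes in each HEK293T library (log axis), Ribo-STAMP left of APOBEC1-only, with replicate numbers beside the points. Right: edited reads per 100 covering reads per 1000 coding bases (log axis) of the 12 members measured in all 3 Ribo-STAMP libraries, ordered by their mean. Replicate 3 holds 1347 edited reads and is the highest of the 3 libraries for 8 of 12 members, with RPL5 at 319.

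In MDA-MB-231 the question was what 48 h of CoCl2 did to the family. The measures were 3: coverage per gene, a stand-in for mRNA abundance, edited reads per gene, and editing per covering read, in which abundance is divided out. In bulk RNA, fewer cells and less RNA per cell cannot be told apart. Coverage and editing per read were tested for 41 members and edited reads for 40. RPL15, RPL21, RPL22L1, RPL36A and RPL41 were tested for none of them, and RPL38, a protein tied to translation of Hox mRNAs in the mouse, for coverage and editing per read alone.

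Coverage was higher with CoCl2 for nearly the whole family. Of the 41 members 32 rose and 0 fell (78.0% rose), against 24.5% that rose and 19.1% that fell of all 5661 genes tested. All 41 log2 changes were positive, with a median of 0.73 against -0.03 over all genes. CoCl2 and untreated libraries did not overlap in 40 members, all with CoCl2 above, as in 39% of all genes. RPL23A was the exception, with 209 and 224 scaled covering reads with CoCl2 and 169 and 266 untreated.

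The largest rises were in RPL8, RPL10 and RPL14. RPL8 had 1589 and 1465 scaled covering reads with CoCl2 and 530 and 814 untreated. RPL10, which joins the subunit late and completes the peptidyl transferase site, had 223 and 233 with CoCl2 and 77.4 and 124 untreated. RPL14, a neighbour of RPL6 on the surface, had 288 and 302 with CoCl2 and 110 and 153 untreated. Both treated libraries were well above both untreated ones in each gene, and untreated replicate 1 was the lowest library. Their log2 changes on the scale of coverage + 1 were 1.21 ± 0.21, 1.21 ± 0.25 and 1.18 ± 0.23 (SE; limma adjusted p = 0.00147, 0.00200 and 0.00184).

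RPL5 had the highest coverage of the family, with 4083 and 3680 scaled reads with CoCl2 and 1594 and 1949 untreated (1.14 ± 0.18, limma adjusted p = 0.00114). Its partner RPL11 had 314 and 295 with CoCl2 and 150 and 173 untreated (0.91). The other rises among the 10 largest were RPL19 (1.05), RPL13 (1.00), RPL35 (0.98), RPL6 (0.96), RPL3 (0.96) and RPLP0 (0.94). RPLP0 anchors the stalk that recruits elongation factors, and had 2064 and 1955 scaled reads with CoCl2 and 935 and 1174 untreated. The other stalk proteins, RPLP1 (0.81) and RPLP2 (0.58), also passed. RPL5, RPLP0, RPL4, RPL8 and RPL6 were the 5 members with the highest coverage in untreated cells.

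The members that did not pass were RPL34, RPL23, RPL31, RPL37, RPL39, RPL27, RPL28, RPL22 and RPL23A, with log2 changes between 0.03 and 0.57. Several of them, RPL23A, RPL31, RPL39 and RPL22, sit around the mouth of the exit tunnel, while RPL19, RPL26, RPL17 and RPL35 of the same region rose. RPL22 had 211 and 222 scaled reads with CoCl2 and 208 and 188 untreated.

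Transcript length moved with the coverage change. Weighted by reads, transcripts averaged 2313 and 2326 bases in CoCl2 and 2803 and 2575 bases in untreated libraries. Across 5619 genes the slope of the log2 change on log2 length was -0.52 (95% interval -0.54 to -0.50; genes are not independent replicates). Members are short, with a median annotated length of 1040 bases against 2515 for all genes. Among genes of up to 1734 bases 25 of 30 members rose with a median change of 0.74, and 64.1% of the 1375 other genes rose with a median of 0.83. Among genes of 3758 bases or more stood RPL13, RPL14, RPL27A, RPL28 and RPL37, of which 3 rose with a median of 0.77, whereas 5.21% of the 1400 other genes rose with a median of -0.60. Annotated length is not the length of the reads, which the files do not give.

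After each library's trend with annotated transcript length was removed, 9 members rose and 1 fell, RPL23A, and the median change of the family was -0.04. That is 22% of members up, against 9.33% up and 6.34% down of all genes. After removal of the trend with coding length, an alternative chosen after the values were seen, 10 rose and 0 fell, with a median of 0.20. Here 24.4% of members rose, against 12.9% that rose and 11.4% that fell of all genes. RPL4, RPL10, RPL13 and RPL14 passed under both corrections. The most covered isoforms of RPL13 and RPL14 are annotated at 4498 and 7072 bases. The transcript length correction uses these values, and the length of the reads is not known. Leaving out a library leaves its group with 1, which is then assumed to vary like the other group. Without CoCl2 replicate 1 or replicate 2, limma called 0 members (15 and 16 at an unadjusted p under 0.05), with medians of 0.76 and 0.75, and 0% and 0.0169% of all genes rose. The part of RNA length in the coverage change was not tested beyond these corrections.

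**Figure D3:**
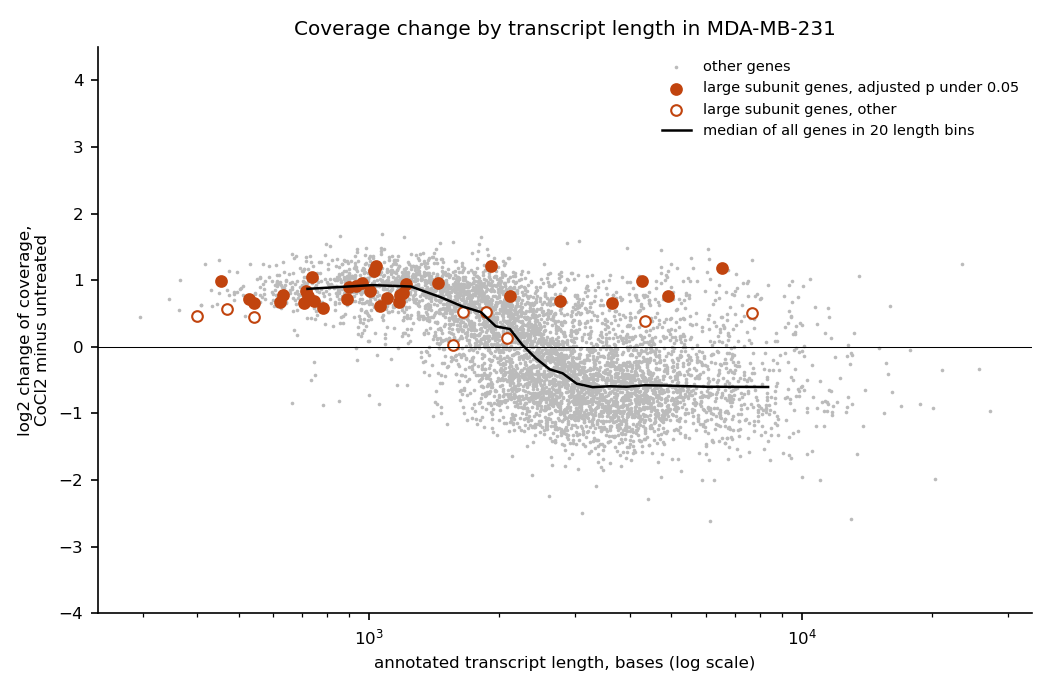
Log2 change of coverage, CoCl2 minus untreated, against annotated transcript length in bases (log axis) for 5619 genes of MDA-MB-231; large points are the 41 members, filled where adjusted p was under 0.05, and the line joins medians of 20 length bins. Short members lie around the line of all short genes, and the members annotated as longer than 3758 bases lie above it.

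The genes around the family were counted from fixed lists. Of 33 small subunit proteins 29 rose in coverage and 0 fell (87.9% up), with a median change of 0.78. These counts are not corrected for length, and the difference between the subunits was not tested. Of 37 factors for assembly and export of the large subunit 9 rose and 6 fell (24.3 and 16.2%, median 0.17), close to the 24.5 and 19.1% of all genes. Of the other TOP mRNAs, mostly translation factors, 6 rose and 1 fell of 18 (33.3 and 5.56%, median 0.30). Among paralogs of members, RPL39L (1.11), RPL36AL (1.02) and RPL26L1 (1.00) rose and RPL7L1 (0.14, a nucleolar paralog of RPL7) did not pass. Reads of such near copies and of the many ribosomal protein pseudogenes can be split in counting, and how the authors handled them is not given in the sources used here.

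Edited reads per gene are not corrected for abundance, and they lack any site edited in every library. Of 40 members tested 19 rose and 0 fell (47.5%), against 12.1% that rose and 2.9% that fell of 4097 genes, with a median of 1.17 against 0.19. RPL23, RPL31 and RPL37A had fewer than 10 edited reads in both untreated libraries and so were tested only through the CoCl2 libraries; RPL31 and RPL37A are among the 19. Among the 33 members with at least 10 edited reads in both untreated libraries, a subset formed after the values were seen, 17 rose and 0 fell (51.5%, median 1.12), against 11.8% that rose of 3269 such genes (median -0.03). In 34 members both CoCl2 libraries lay above both untreated libraries, as in 41.3% of all genes, and in RPL37 both lay below, as in 26.5%.

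RPL31 had 24.7 and 34.7 depth-scaled edited reads with CoCl2 and 6.61 and 6.67 untreated. RPL13A had 71.9 and 57.4 with CoCl2 and 20.8 and 15.2 untreated, and RPL35 had 45.2 and 70.4 with CoCl2 and 10.4 and 23.8 untreated. In all 3 both treated libraries lay above both untreated ones. The log2 changes were 1.80 ± 0.36 for RPL13A and 1.77 ± 0.44 for RPL35 (SE; limma adjusted p = 0.0298 and 0.0330). RPL31 (1.99) and RPL37A (1.67) entered only through the treated libraries, so no test is given for them. RPL13 (1.51), RPL12 of the stalk base (1.48), RPL19 (1.46), RPL26 (1.44), RPL5 (1.40) and RPL3 (1.40) followed among the largest changes that passed. RPL5 and RPL3 had a median of over 500 covering reads in every MDA-MB-231 library. At that coverage 37.8 to 50.5% of members' positions followed an A or U, around the 42.4% of all their coding cytidines. How many of their edited reads are background was not tested. RPL37, by contrast, had 17.5 and 14.1 edited reads with CoCl2 and 17.9 and 20.01 untreated (-0.26 ± 0.42, limma adjusted p = 0.671). The calls were lost without CoCl2 replicate 1 or 2, a fit that leaves 1 library in that group. More were called without untreated replicate 2, among members and all genes alike. With all 4 libraries, the count of members that rose was 6 after the transcript length correction, 5 after the coding length correction and 8 under TMM. These are 15, 12.5 and 20% of members, against 6.41, 8.22 and 5.17% of all genes.

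Editing per covering read, which sets abundance aside, gave no call. In simulated data this test called 0% of genes changed 2-fold and 32% of those changed 4-fold. The changed genes were drawn from all genes above a coverage minimum, with an assumed noise, so these shares are not the members' own. limma called 0 of 41 members (lowest adjusted p = 0.520) and 0% of 5662 genes. At an unadjusted p under 0.05 stood 9 members, 8 of them higher with CoCl2, and 8.53% of all genes. The change was positive in 34 of 41 members with a median of 0.42, against 0.20 over all genes, on the scale of the log2 odds of an edit. With each library centred on its median gene 27 of 41 were positive, with a median of 0.22 against 0.00. CoCl2 lay above untreated without overlap in 21 members, as in 30.1% of all genes, and below in RPL37 alone, as in 9.61%, and the groups overlapped in 19.

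RPL31 and RPL13A had the largest positive changes and RPL37 the only negative one without overlap. RPL31 had 8 and 9.80 edited reads per 100 covering reads with CoCl2 and 3.83 and 2.73 untreated (1.39 ± 0.29, limma adjusted p = 0.520). RPL13A had 14.8 and 14.2 with CoCl2 and 8.70 and 5.44 untreated (1.05 ± 0.28, limma adjusted p = 0.520). RPL37 had 7.26 and 5.83 with CoCl2 and 11.7 and 10.6 untreated (-0.76 ± 0.30, limma adjusted p = 0.550). None passed, although the libraries of each gene stood apart.

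**Figure D4:**
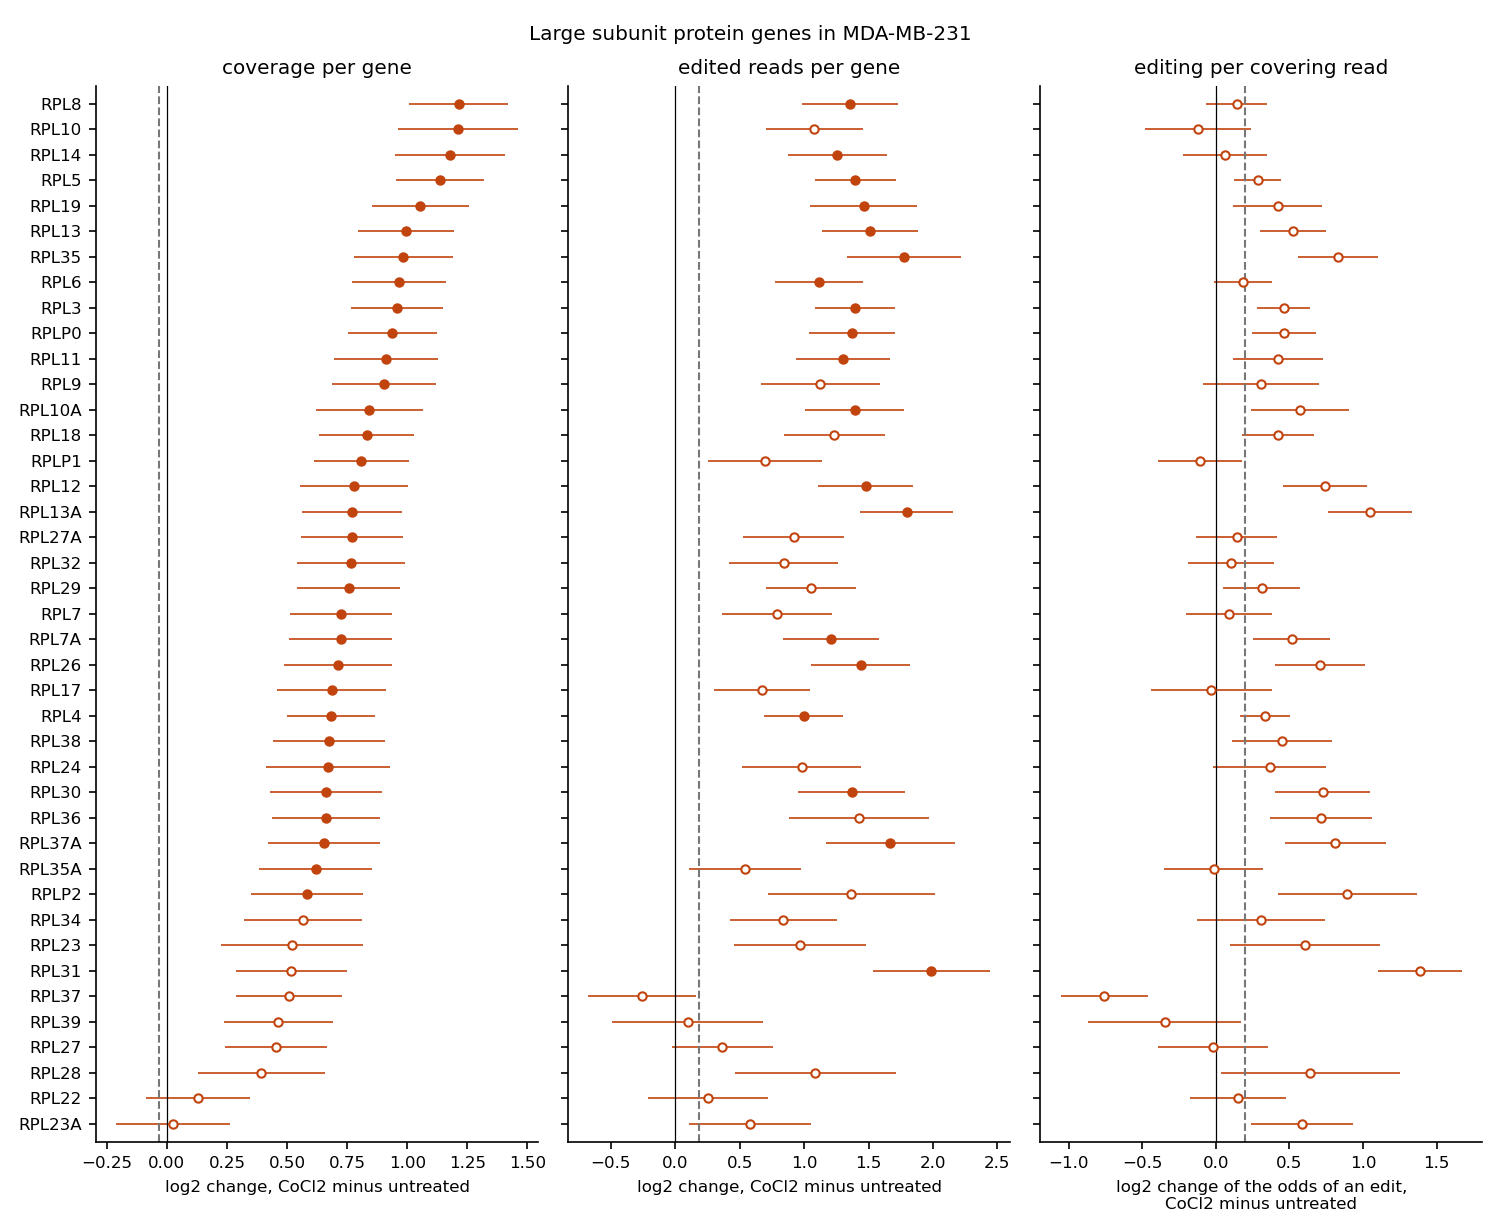
Log2 change, CoCl2 minus untreated, of the large subunit genes in MDA-MB-231 for coverage, edited reads and editing per covering read (log2 odds), ordered by the coverage change; bars are SE, filled points have adjusted p under 0.05 and the dashed line is the median of all genes. Coverage is positive in all 41 members and passes in 32, edited reads pass in 19 of 40 (RPL31 and RPL37A only through the CoCl2 libraries), and no point passes for editing per read.

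Editing levels differed widely between members. In untreated MDA-MB-231 the level per 100 covering reads per 1000 coding bases was highest in RPL39 (75.2 and 27.3), RPL28 (18.7 and 73.0), RPL23 (44.3 and 37.9), RPL37 (40.1 and 36.3) and RPL24 (28.6 and 44.1). The same genes stood at 50.5 and 25.1 (RPL39), 55.8 and 63.7 (RPL28), 63.2 and 63.2 (RPL23), 24.97 and 20.03 (RPL37) and 46.5 and 46.3 (RPL24) with CoCl2. RPL23 and RPL24 take part in bridges to the small subunit, and RPL28 is a eukaryotic protein that budding yeast lacks. In untreated cells their ranges overlapped one another, so the order among the 5 was not resolved there. With CoCl2, RPL37 lay below the others, and RPL23 and RPL28 lay above RPL24.

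RPL5 was the lowest, at 3.05 and 3.16 with CoCl2 and 2.46 and 2.61 untreated. RPL4 followed with 5.77 and 5.59 (CoCl2) and 4.27 and 4.72 (untreated), RPLP0 with 8.15 and 7.67 (CoCl2) and 4.70 and 6.80 (untreated), and RPL3 with 9.08 and 8.41 (CoCl2) and 6.48 and 6.14 (untreated). These genes were picked as the lowest, so their place below the 5 highest members follows from that choice. Covering reads divide this level, and the part of their high coverage was not tested. RPL6 stood at 9.05 and 7.62 with CoCl2 and 6.87 and 7.80 untreated. RPL41 stood at 7.60 and 5.80 untreated, on 2 edited reads in each library. The highest mean of the 41 was 20.3 times the lowest with CoCl2 and 20.2 times untreated. Before division by coding length, the level per 100 covering reads had a Spearman correlation with coding length of 0.22 with CoCl2 and 0.16 untreated, over 41 genes of the same libraries. After division it was -0.43 with CoCl2 and -0.44 untreated. Longer members thus tended to rank lower on this scale, and the order of members per 1000 coding bases is not independent of coding length.

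How the family compared with other genes depended on the scale. Per covering read, the median member had 10.0 and 10.2 edited reads per 100 with CoCl2 and 7.83 and 8.05 untreated, against 20.8 and 20 (CoCl2) and 18.0 and 18.0 (untreated) in 5586 other genes. Per 1000 coding bases the medians were 24.2 and 23.3 with CoCl2 and 16.2 and 18.4 untreated, against 18.6 and 17.8 (CoCl2) and 15.4 and 15.9 (untreated). Members have short coding sequences, and their medians were lower than those of other genes per read and higher per base. With reads pooled over genes, the family lay near other genes per 1000 coding bases, except in untreated replicate 1, where it lay below. It stood at 12.1 and 12.3 with CoCl2 and 9.04 and 11.3 untreated. Other genes stood at 12.6 and 12.1 (CoCl2) and 11.6 and 11.1 (untreated).

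**Figure D5:**
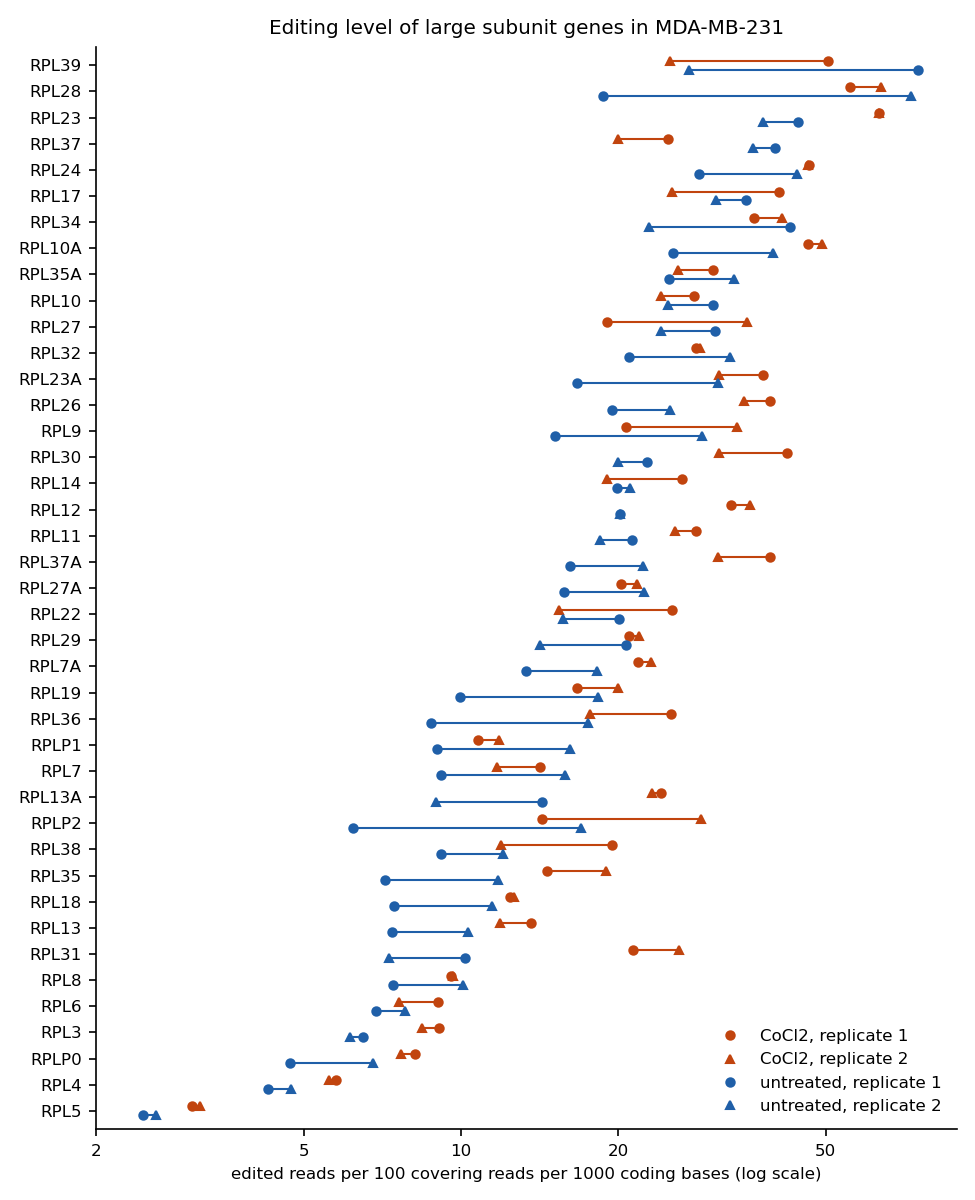
Edited reads per 100 covering reads per 1000 coding bases (log axis) of the 41 members in each MDA-MB-231 library, CoCl2 above untreated in each row, ordered by the untreated mean; lines join the 2 replicates. Levels run from 2.46 in RPL5 to 75.2 in RPL39, and RPL37 is the gene whose CoCl2 libraries both lie below its untreated libraries.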

How the data were processed

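The authors deposited 1 file per library in which a cell holds 2 whole-number read counts for a coding position of an isoform, read from the values as edited and covering reads. This is not a single-number count column, so the unit was recorded as other and no count model was the main test. As an alternative run, limma-voom was applied to edited reads. In MDA-MB-231 it gave 47.5% of members and 13.7% of all genes as risen. Per the submitters' processing notes, the builds were hg19 and hg38. Only the MDA-MB-231 files match GRCh38, so coordinates and sequences are given for them alone (GENCODE 29). Aligner, edit caller and filters: not given in the sources used here.

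Members and lists were chosen with earlier results of these data known. Named members were, per comparison, up to 10 with the largest change past the threshold, the 5 highest and 5 lowest levels, the 5 highest coverages, unlisted members, and the 10 positions with most edited reads. Members named outside this rule were chosen after their values were seen.

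Coverage of a gene was summed over isoforms listed in all libraries of its line (median covering reads per isoform) and scaled with TMM, the trimmed mean of log ratios. Edited reads were divided by relative depth, the median ratio of isoform coverage. Editing per read used the log2 odds of an edit with 0.5 added. Filters were a mean coverage of at least 10, or 10 edited reads in 3 HEK293T or 2 MDA-MB-231 libraries. Each line was fitted alone by limma 3.58.1 under R 4.3.3 (trended prior variance, two-sided) on log2(value + 1), Benjamini-Hochberg over all genes, threshold 0.05. Length correction subtracted a natural spline with 4 degrees of freedom on log2 length from each library. The scripts were tested on simulated data in which 200 genes were changed. In MDA-MB-231, 0% of 2-fold and 32% of 4-fold changes were called for editing per read. The shares were 39.5 and 96% for edited reads and 62.5 and 99% for coverage. Same-numbered HEK293T libraries deviated together in coverage (correlations 0.23, 0.44 and 0.58), where no member could be tested. Coverage could be measured only on edited isoforms.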

Additional observations from a re-analysis of the deposited data

How the results depend on the processing

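Among the up to 10 largest called changes per comparison, none turned its sign under any alternative run, but the median coverage change of the family was -0.04 after the transcript length correction, against 0.73, and RPL23A, not called before it, fell by 0.57. In MDA-MB-231, 32 members rose in coverage, and leaving out 1 library, after which the lone library is assumed to vary like the other group, gave 0 (either CoCl2 replicate) to 39 (untreated replicate 2). The transcript length correction gave 9 up and 1 down (9.33 and 6.34% of all genes). The coding length correction gave 10 up (12.9% of all genes). For edited reads, where 19 rose, transcript length gave 6, coding length 5, TMM 8, and no filter 0, which adds genes with few reads. Leaving out either CoCl2 replicate or untreated replicate 2 moved these calls as it did for coverage. With the replicate block, 31 members rose in coverage and 24 in edited reads, against 23.6 and 19.1% of all genes, and editing per read kept 0. Correlations between same-numbered MDA-MB-231 libraries were at most 0.023. With 2 libraries a group the deviations mirror each other, so these values cannot settle whether the numbers pair the libraries. Editing per read had 0 calls among members in every alternative run. In HEK293T the 3 members with enough edited reads passed only through Ribo-STAMP, so their rise is not read as a result. They rose in the main run and with the block, as did 99.7 and 99.8% of all genes. Under TMM 0 of them rose (0 at an unadjusted p under 0.05 by limma), against 3.82% of all genes. Without a filter 19 members rose (43.2%), against 32.3% of all genes. Leaving out 1 library gave 0 to 2 members that rose in editing per read, the 2 without APOBEC1-only replicate 2. Of the 5 members highest per covering read in untreated MDA-MB-231, 2 stayed among the 5 highest per 1000 coding bases and 1 per 100 coding cytidines. Where no cause is named, the cause was not tested. With 2 libraries a group and fewer than 20 edited reads for several members, differences in editing per read, large ones included, could go undetected.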
